A study of Homo sapiens with 2 samples.

Results

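The genes described here encode the translocases of the outer and inner mitochondrial membrane (TOM and TIM) and the machinery that works with them. Members were the protein-coding gene rows without a hyphen whose symbol begins with TOMM or TIMM, plus 13 named partners (SAMM50, MTX1, MTX2, MTX3, PMPCA, PMPCB, GRPEL1, GRPEL2, PAM16, DNAJC19, CHCHD4, GFER and ROMO1). The rule found 39 genes among 46427 gene rows. It reads symbols and gene type alone, but it was drawn up with earlier results of these data known. RNA was sequenced from cells labelled MiaPaca2, a line from a human pancreatic adenocarcinoma, in 2 libraries. One came from cells exposed for 48 hours to iMQT_020, labelled an inhibitor of the mitochondrial glutamine transporter, and the other from cells given vehicle for 48 hours. The comparison asks how import gene transcripts differed between the exposed and the vehicle cells.

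Nearly all mitochondrial proteins are encoded in the nucleus, made in the cytosol and imported. Precursors cross the outer membrane through the TOM complex. Those with a cleavable presequence then pass the TIM23 complex with the help of an ATP-driven motor, and a peptidase removes the presequence in the matrix. Carrier proteins travel with small chaperones to the TIM22 complex, beta-barrel proteins are inserted by the SAM complex, and small cysteine-rich proteins are trapped in the intermembrane space by a disulfide relay.

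There was 1 library per treatment, so no difference has a replicate check, no test of the treatment was possible, and the treatment cannot be told apart from any other difference between the libraries. Estimated counts totalled 59139157 in the iMQT_020 library and 67095283 in the vehicle library. Ratios are log2 ratios of counts scaled to the libraries by the TMM method, iMQT_020 over vehicle, and values in parentheses after them are exact 95% intervals that cover counting error only. Genes that reached 50 counts in either library, 14805 in all, are called measured. The labelled identity was not borne out by every marker. CDKN2A, which MIA PaCa-2 cells are known to lack, was at 208 TPM (iMQT_020) and 278 TPM (vehicle). MTAP and CDKN2B, also read as lost in that line, were at 26.2 and 13.5 TPM (iMQT_020) and 33.7 and 8.04 TPM (vehicle). Of the genes read as expressed in it, CD44 had 3 counts (iMQT_020) and 16 counts (vehicle). ANXA1 was at 2.74 TPM (iMQT_020) and 3.13 TPM (vehicle), and VIM at 438 TPM (iMQT_020) and 403 TPM (vehicle). The epithelial gene EPCAM had 0 counts (iMQT_020) and 4 counts (vehicle). KRT19, another epithelial gene, was listed at 0 in both libraries, while KRT8, KRT18 and the mesenchymal filament gene VIM were abundant. Of the fibroblast, immune and endothelial genes read, COL1A2, DCN, PTPRC and CD3E were listed at 0 in both libraries, and COL1A1 was the most abundant at 11.1 TPM (iMQT_020) and 16.5 TPM (vehicle). Cell identity was not tested further, so the values below are those of the cells in these libraries.

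Transcripts of the import machinery were modestly lower in the iMQT_020 library, by an amount that depended on how transcript length and GC content were treated. Of the 39 genes, 38 were measured, and 33 of these had a ratio below 0 and 5 above 0, with a median of −0.18. Over all measured genes 50.4% lay below 0 and 49.6% above it, and the median was −0.00. Ratios also varied with transcript length and GC content over all genes. Centred on the median of genes of like length and GC content, called centred values below, the import genes had a median of −0.09, with 26 of 38 below 0. Of the 13853 genes with a centred value, 49.8% were below 0. The spread among import genes was narrow, with ratios from −0.63 to 0.15. None was at least 2-fold apart, against 2.26% of measured genes that were 2-fold higher and 2.92% that were 2-fold lower. By a smaller rule of 1.3-fold, 4 were lower (10.5% of the 38, against 17.5% of measured genes) and 0 were higher (against 15.1%). The share past either rule was thus no greater than the background. Together the 39 genes took 0.331% of the counts in the iMQT_020 library and 0.376% in the vehicle library, and their TPM summed to 4701 with iMQT_020 and 5258 with vehicle.

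**Figure D1:**
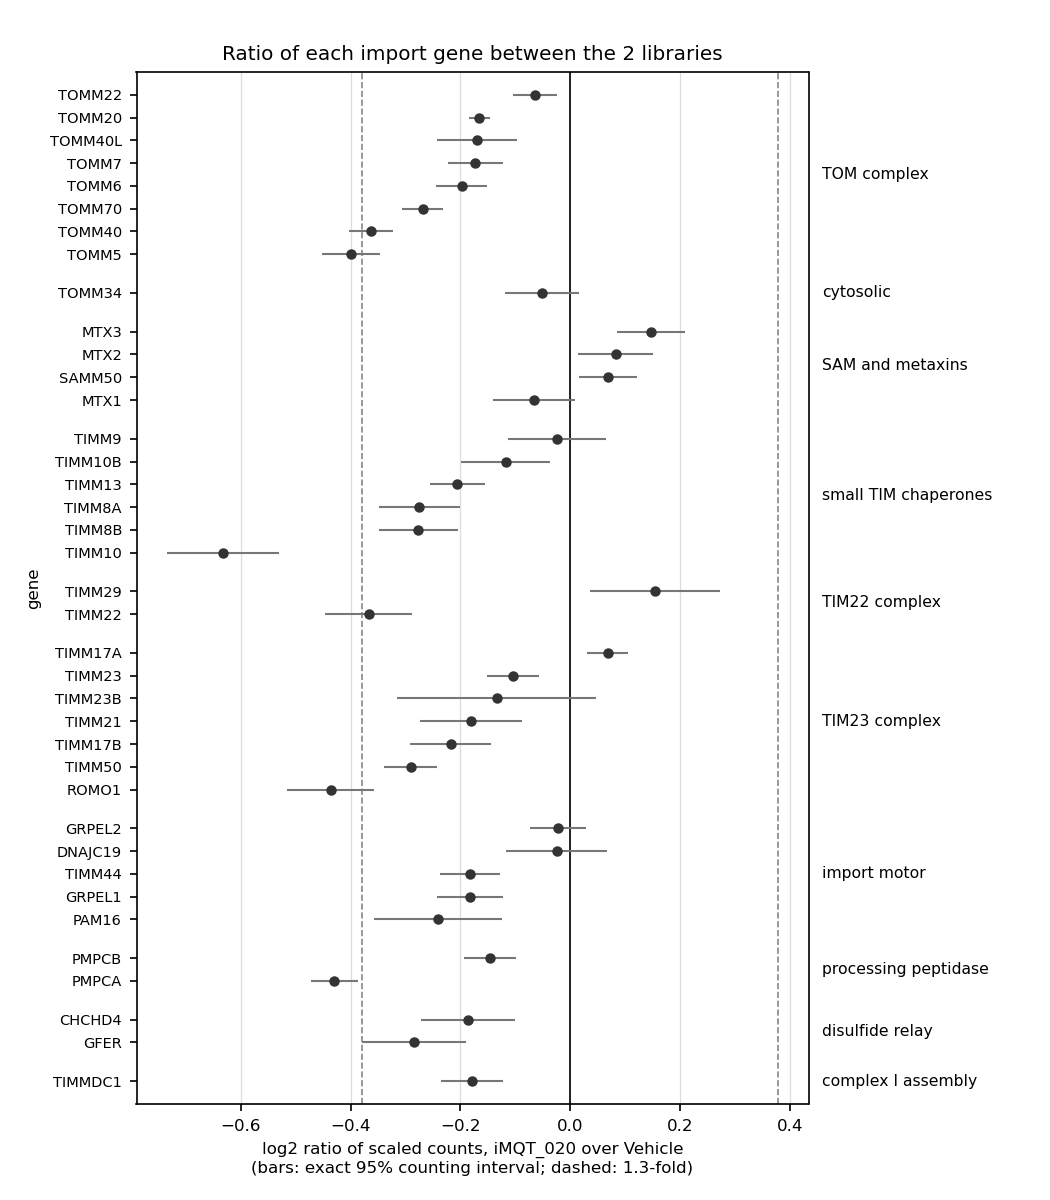
Log2 ratio of scaled counts, iMQT_020 over vehicle, for the 38 measured import genes by role, with exact 95% counting intervals as bars and dashed lines at 1.3-fold. Most genes lie left of 0, TIMM10 lies farthest left at −0.63, and MTX2, MTX3, SAMM50, TIMM29 and TIMM17A lie right of 0.

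The 8 measured genes of the TOM complex all had ratios below 0, from −0.40 to −0.06. All centred values were below 0 as well, from −0.35 (TOMM70) to −0.01 (TOMM7), with TOMM6 at −0.07. TOMM20, the receptor that binds presequences, lies on chromosome 1 from 235109341 to 235128837 (GRCh38) and had the most counts of the list, 40997 in the iMQT_020 library and 52689 in the vehicle library. Its level was 489 TPM (195 FPKM) with iMQT_020 and 539 TPM (221 FPKM) with vehicle, a ratio of −0.17 (−0.18 to −0.15). TOMM22, the central receptor that joins the channel subunits, had the ratio nearest 0, with 8975 counts, 173 TPM and 68.9 FPKM with iMQT_020, against 10753 counts, 178 TPM and 73.0 FPKM with vehicle, and a ratio of −0.06 (−0.10 to −0.02).

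TOMM40, the beta-barrel pore, had 8326 counts in the iMQT_020 library and 12275 in the vehicle library. Its level was 186 TPM (74.3 FPKM) with iMQT_020, against 237 TPM (97.6 FPKM) with vehicle, and its ratio was −0.36 (−0.40 to −0.32), just within 1.3-fold. TOMM70, the receptor for carriers and other precursors with internal signals, had 9997 counts (iMQT_020) and 13801 counts (vehicle) and a ratio of −0.27 (−0.31 to −0.23). The order of pore and receptors turned with the centring: TOMM40 was then at −0.08, TOMM20 at −0.26, TOMM70 at −0.35 and TOMM22 at −0.03.

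Among the small subunits that stabilise the pore, TOMM5 had the lowest ratio of the complex. It had 4737 counts, 260.0 TPM and 104 FPKM with iMQT_020, against 7157 counts, 334 TPM and 137 FPKM with vehicle, a ratio of −0.40 (−0.45 to −0.35), or 1.32-fold lower. Its centred value was −0.28. TOMM6 and TOMM7 were at −0.20 and −0.17. Both were among the most abundant genes of the list, TOMM7 at 523 TPM (iMQT_020) and 578 TPM (vehicle) and TOMM6 at 442 TPM (iMQT_020) and 497 TPM (vehicle).

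The TOM genes also have less abundant relatives. TOMM40L, a paralog of the pore gene, had a ratio of −0.17, and TOMM40 stood at 4.60 times the TPM of TOMM40L in the iMQT_020 library and 5.38 times in the vehicle library. With the centring TOMM40L was at −0.09, beside −0.08 for TOMM40. TOMM20L, a paralog of TOMM20, was not measured: it had 5 counts in the iMQT_020 library and 0 in the vehicle library, where 0 counts allow up to 3 counts, or 0.0445 CPM. Its span overlaps that of TIMM9, and it is given no fold. TOMM34, a cytosolic cochaperone and not a subunit of the complex, had 3285 counts, 65.3 TPM and 26.0 FPKM with iMQT_020, against 3902 counts, 66.4 TPM and 27.3 FPKM with vehicle, and a ratio of −0.05 (−0.12 to 0.02), with a centred value above 0, at 0.06.

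**Figure D2:**
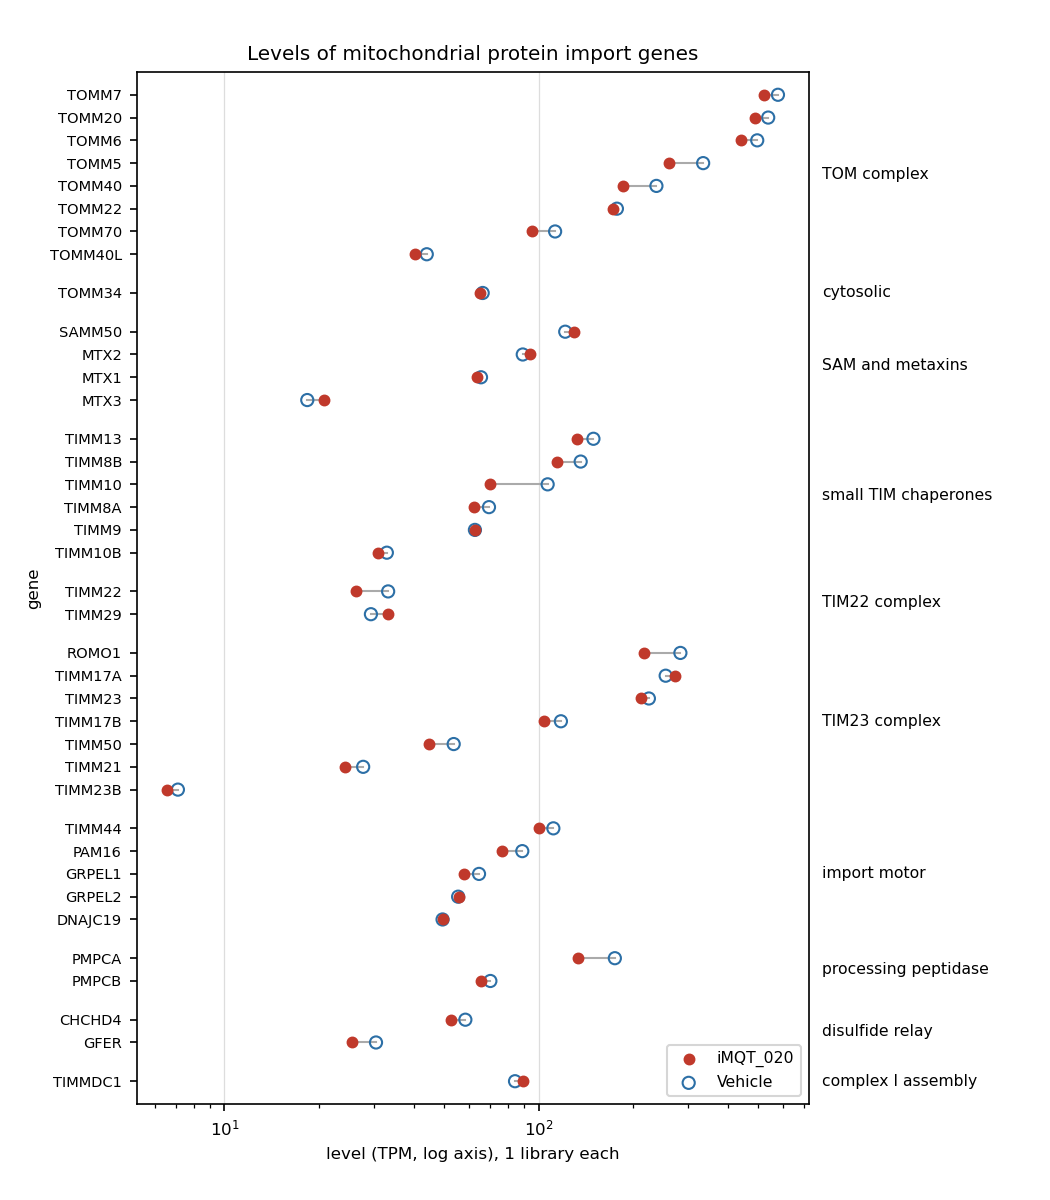
Level in TPM on a log axis of the 38 measured import genes by role, with filled points for iMQT_020 and open points for vehicle, 1 library each. Levels span from TIMM23B at 6.57 TPM (iMQT_020) and 7.11 TPM (vehicle) to TOMM7 at 523 TPM (iMQT_020) and 578 TPM (vehicle), and TOMM7, TOMM20 and TOMM6 are the highest in both libraries.

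The genes of the SAM complex and the metaxins stood on the other side of 0, with 3 of 4 above it. SAMM50, the beta-barrel that inserts other beta-barrels, had 5615 counts and 130.0 TPM with iMQT_020, against 6134 counts and 122 TPM with vehicle, and a ratio of 0.07 (0.02 to 0.12). MTX2, a partner of SAMM50, was at 0.08 (0.02 to 0.15). MTX3, another metaxin gene, had the highest ratio of the group: 4166 counts, 20.7 TPM and 8.25 FPKM with iMQT_020, against 4312 counts, 18.4 TPM and 7.55 FPKM with vehicle, and 0.15 (0.09 to 0.21). MTX1 was lowest, with 2669 counts, 63.9 TPM and 25.4 FPKM with iMQT_020, against 3200 counts, 65.6 TPM and 27.0 FPKM with vehicle, and a ratio of −0.06 (−0.14 to 0.01) whose interval holds 0. With the centring this order turned, MTX1 at 0.33 being the highest of the group and MTX3 at −0.04 the lowest.

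The 6 small TIM chaperones, which escort hydrophobic precursors through the intermembrane space, all had ratios below 0, with a median of −0.24, but TIMM9 and TIMM13 were above 0 with the centring. TIMM10, on chromosome 11 from 57528464 to 57530754, had the lowest ratio of the whole list. It had 1223 counts, 70.2 TPM and 28.0 FPKM with iMQT_020, against 2172 counts, 107 TPM and 43.96 FPKM with vehicle. The ratio was −0.63 (−0.73 to −0.53), 1.55-fold lower, and 8.56% of all measured genes lay lower.

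TIMM9, which builds a ring-shaped hexamer with TIMM10, had the highest ratio of the group. It had 1873 counts, 62.7 TPM and 25.0 FPKM with iMQT_020, against 2182 counts, 62.7 TPM and 25.8 FPKM with vehicle, and a ratio of −0.02 (−0.11 to 0.07). With the centring TIMM10 was at −0.47 and TIMM9 at 0.06. The TPM of TIMM10 was thus 1.12 times that of TIMM9 in the iMQT_020 library and 1.70 times in the vehicle library. This pairing, like the other partner pairs below, was set side by side after the values were seen.

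TIMM8A and TIMM13 form the other such hexamer, and TIMM8A is the gene mutated in a deafness and dystonia syndrome. Their ratios were −0.27 and −0.21, and TIMM8A stood at 0.472 times the TPM of TIMM13 in the iMQT_020 library and 0.465 times in the vehicle library. TIMM8B, a paralog of TIMM8A, was at −0.28, and TIMM8A stood at 0.543 times its TPM with iMQT_020 and 0.511 times with vehicle. TIMM10B, which holds the chaperones at the TIM22 complex, was at −0.12. The ratios of TIMM8A and TIMM13 lay close together by counts, but their centred values lay on opposite sides of 0, at −0.19 for TIMM8A and 0.19 for TIMM13.

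The TIM22 complex inserts carrier proteins into the inner membrane, and its 2 member genes lay on opposite sides of 0. TIMM22, the channel-forming subunit, had 2131 counts, 26.2 TPM and 10.4 FPKM with iMQT_020, against 3150 counts, 33.2 TPM and 13.7 FPKM with vehicle, a ratio of −0.37 (−0.45 to −0.29). TIMM29, a subunit that links the complex to the TOM complex, had the highest ratio of the list. It lies on chromosome 19 from 10928811 to 10930254 and had 1142 counts, 33.2 TPM and 13.2 FPKM with iMQT_020, against 1176 counts, 29.3 TPM and 12.0 FPKM with vehicle, and a ratio of 0.15 (0.04 to 0.27). TIMM22 stood at 0.790 times the TPM of TIMM29 in the iMQT_020 library and 1.13 times in the vehicle library, so their order was turned. TIMM22 overlaps the gene ABR, as 11 of the 39 genes overlap another protein-coding gene, and the median of the 28 measured genes that overlap none was −0.18.

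The sequences before these genes are shown because TIMM10 and TIMM9, and TIMM22 and TIMM29, are partners whose ratios differed most. Each runs 5′ to 3′ from 250 bases before the transcript start to 50 bases after it (RefSeq, GRCh38.p14). Capitals mark matches to GCGCANGCG, a core bound by the factor NRF1, or to CCGGAAG, a core of ETS family sites, on either strand.
TIMM10 (chr11:57530705-57531004, minus strand): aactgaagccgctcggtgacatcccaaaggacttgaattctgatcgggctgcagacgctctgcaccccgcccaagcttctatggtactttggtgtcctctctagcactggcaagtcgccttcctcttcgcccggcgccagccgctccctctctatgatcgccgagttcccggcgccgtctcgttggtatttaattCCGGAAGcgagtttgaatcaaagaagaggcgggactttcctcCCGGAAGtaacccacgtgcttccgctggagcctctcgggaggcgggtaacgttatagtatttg
TIMM9 (chr14:58427482-58427781, minus strand): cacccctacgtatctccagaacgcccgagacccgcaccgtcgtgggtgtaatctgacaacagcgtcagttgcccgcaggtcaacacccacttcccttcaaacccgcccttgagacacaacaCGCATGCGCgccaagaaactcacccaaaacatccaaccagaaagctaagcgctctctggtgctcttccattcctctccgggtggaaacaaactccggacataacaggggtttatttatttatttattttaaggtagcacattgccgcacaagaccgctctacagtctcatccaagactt
TIMM22 (chr17:996879-997178, plus strand): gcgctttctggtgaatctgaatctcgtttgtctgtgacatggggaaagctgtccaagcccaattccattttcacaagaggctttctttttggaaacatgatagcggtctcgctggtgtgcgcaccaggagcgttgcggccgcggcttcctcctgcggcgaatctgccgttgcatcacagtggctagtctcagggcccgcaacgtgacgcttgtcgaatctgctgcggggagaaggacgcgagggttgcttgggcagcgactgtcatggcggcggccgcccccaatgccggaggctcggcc
TIMM29 (chr19:10928561-10928860, plus strand): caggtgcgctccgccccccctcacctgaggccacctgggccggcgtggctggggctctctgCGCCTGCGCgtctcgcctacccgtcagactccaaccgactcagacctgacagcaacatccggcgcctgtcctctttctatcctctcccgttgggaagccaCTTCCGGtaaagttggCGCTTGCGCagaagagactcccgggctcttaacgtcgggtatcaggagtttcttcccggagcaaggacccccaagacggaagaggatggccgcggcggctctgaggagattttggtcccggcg
The TIMM10 window held 2 ETS matches, the TIMM9 window 1 NRF1 match, and the TIMM29 window 1 ETS match and 2 NRF1 matches. The TIMM22 window held neither, which says only that these letters are not in this window.

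Promoter sequences were matched for 36 of the 39 genes, all but GRPEL1, TIMM8B and TOMM5, taking the first listed start of each gene. The ETS letters stood in 17 of the 36 windows (47.2%), against 10.3% of all 35116 promoters in the table and 19.2% of those of 10533 measured protein-coding genes. The NRF1 letters stood in 12 (33.3%), against 7.52% of all promoters and 15.1% of those of measured protein-coding genes. The letters AANATGGCG, a core bound by YY1, stood in 6 (16.7%, against 3.19% and 6.94%), and the E-box CACGTG, which MYC and related factors bind, in 4 (11.1%, against 7.26% and 10.4%). The TATA letters TATAAA stood in none (0 of 36, against 11.5% and 5.33%). All 5 motifs were searched on both strands, none contains another, and a match is a description of sequence, not of a bound site.

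A protein-coding neighbour starting on the other strand within 1000 bases upstream was found for 12 of the 36 genes (33.3%), against 16.2% of measured protein-coding genes. Of the 11 measured neighbours 8 had a ratio on the same side of 0 as the import gene (72.7%), against 472 of 809 such pairs of measured protein-coding genes (58.3%), a difference not tested. MTX1 with THBS3, TIMM17B with PQBP1 and TIMM9 with KIAA0586 also overlap in span, so these pairs may share reads. PMPCA and ENTR1, whose starts lie 44 bases apart, were at −0.43 and −0.23. ROMO1 and NFS1, the cysteine desulfurase gene, start 53 bases apart and were at −0.44 and −0.12. The pairs TIMM9 with KIAA0586 (−0.02 and 0.57), TOMM70 with LNP1 (−0.27 and 0.81) and TIMM23B with PARG (−0.13 and 0.25) lay on opposite sides.

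The TIM23 complex moves precursors with a presequence across or into the inner membrane, and 6 of its 7 genes had ratios below 0, or 5 of 7 with the centring. TIMM23, its core subunit, lies on chromosome 10 from 45972489 to 46003742 and had 6477 counts, 212 TPM and 84.6 FPKM with iMQT_020, against 7980 counts, 225 TPM and 92.3 FPKM with vehicle, and a ratio of −0.10 (−0.15 to −0.06). TIMM23B, a near-identical copy on the same chromosome from 49942053 to 49974850, had 451 counts (iMQT_020) and 567 counts (vehicle) and a ratio of −0.13. Reads of the copies may have been divided between them, so both values are uncertain. Summed with TIMM23B and its read-through row, TIMM23 was at −0.12.

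TIMM17A and TIMM17B are alternative partners of TIMM23, and TIMM17A is known as the copy that is degraded under stress. They lay on opposite sides of 0 by counts, but not with the centring, where TIMM17A was at 0.07 and TIMM17B at 0.05. TIMM17A had 11426 counts, 271 TPM and 108 FPKM with iMQT_020, against 12491 counts, 254 TPM and 104 FPKM with vehicle, and a ratio of 0.07 (0.03 to 0.10). TIMM17B had 2568 counts, 104 TPM and 41.3 FPKM with iMQT_020, against 3422 counts, 118 TPM and 48.4 FPKM with vehicle, and a ratio of −0.22 (−0.29 to −0.14). TIMM17A was the more abundant in both libraries, at 2.61 times the TPM of TIMM17B with iMQT_020 and 2.16 times with vehicle.

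TIMM50, the receptor that guides precursors from the TOM complex to TIMM23, was lower, with 5738 counts, 44.7 TPM and 17.8 FPKM with iMQT_020, against 8044 counts, 53.7 TPM and 22.1 FPKM with vehicle. Its ratio was −0.29 (−0.34 to −0.24). TIMM21, which links the complex to respiratory chain assembly, was at −0.18. ROMO1, a small membrane protein found with the complex and known for its tie to reactive oxygen species, had the lowest ratio of the group. It had 2145 counts, 216 TPM and 86.0 FPKM with iMQT_020, against 3326 counts, 283 TPM and 116 FPKM with vehicle, a ratio of −0.44 (−0.52 to −0.36) or 1.35-fold lower. With the centring ROMO1 was at −0.24 and TIMM50 at −0.32.

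The 5 genes of the import motor, which pulls precursors into the matrix, were all below 0 by counts, from −0.24 to −0.02. These directions were not the same under other treatments: PAM16 and TIMM44 were both at 0.03 with the centring, and by TPM DNAJC19 and GRPEL2 were just above 0. PAM16, a J-like protein whose yeast counterpart holds back the J protein of the motor, was lowest with 1042 counts, 76.5 TPM and 30.5 FPKM with iMQT_020, against 1411 counts, 88.8 TPM and 36.5 FPKM with vehicle, and a ratio of −0.24 (−0.36 to −0.12). Summed with the overlapping read-through row CORO7-PAM16, PAM16 was at −0.29. DNAJC19, that J protein, was at −0.02, and the TPM of PAM16 was 1.54 times that of DNAJC19 with iMQT_020 and 1.79 times with vehicle. TIMM44, the scaffold that ties the motor to the channel, was at −0.18.

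GRPEL1 and GRPEL2 encode nucleotide exchange factors for the motor's ATPase, HSPA9. GRPEL1 had 3930 counts, 58.0 TPM and 23.1 FPKM with iMQT_020, against 5113 counts, 64.7 TPM and 26.6 FPKM with vehicle, and a ratio of −0.18 (−0.24 to −0.12). GRPEL2 had 5712 counts, 55.6 TPM and 22.2 FPKM with iMQT_020, against 6647 counts, 55.5 TPM and 22.8 FPKM with vehicle, and a ratio of −0.02 (−0.07 to 0.03). GRPEL1 stood at 1.04 times the TPM of GRPEL2 in the iMQT_020 library and 1.17 times in the vehicle library. With the centring GRPEL1 and GRPEL2 were both at −0.17.

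The matrix processing peptidase is a dimer of PMPCA, which binds the presequence, and PMPCB, which cuts it. PMPCA had 7122 counts, 133 TPM and 53.1 FPKM with iMQT_020, against 10991 counts, 175 TPM and 71.9 FPKM with vehicle, a ratio of −0.43 (−0.47 to −0.39) or 1.35-fold lower. PMPCB had 6477 counts, 65.5 TPM and 26.1 FPKM with iMQT_020, against 8216 counts, 70.3 TPM and 28.9 FPKM with vehicle, and a ratio of −0.15 (−0.19 to −0.10). The TPM of PMPCA was 2.04 times that of PMPCB in the iMQT_020 library and 2.49 times in the vehicle library. With the centring PMPCA was at −0.25 and PMPCB at −0.30.

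The disulfide relay consists of CHCHD4, the oxidoreductase that traps its substrates, and GFER, the oxidase that recharges it. CHCHD4 had 1947 counts, 52.6 TPM and 20.9 FPKM with iMQT_020, against 2538 counts, 58.5 TPM and 24.0 FPKM with vehicle, and a ratio of −0.19 (−0.27 to −0.10). GFER had 1535 counts, 25.4 TPM and 10.1 FPKM with iMQT_020, against 2142 counts, 30.4 TPM and 12.5 FPKM with vehicle, and a ratio of −0.28 (−0.38 to −0.19). Both were lower by counts, but the centred value was −0.11 for CHCHD4 and 0.04 for GFER.

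TIMMDC1, an assembly factor of respiratory complex I that carries a TIM-like domain, differed in direction between the deposited units. It had 4471 counts in the iMQT_020 library and 5803 in the vehicle library, a count ratio of −0.18 (−0.24 to −0.12). Its level was 89.4 TPM and 35.6 FPKM with iMQT_020, against 84.2 TPM and 34.6 FPKM with vehicle, a log2 TPM ratio of 0.09. FPKM and TPM divide by transcript length, so the counts per FPKM track the mean length of the transcripts to which reads were assigned. Relative to the median of measured genes, this length measure was lower by 0.24 log2 in the iMQT_020 library for TIMMDC1, for which 2 transcripts are listed.

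TIMMDC1 was the 1 measured import gene with a shift above 0.1 log2 in size, a shift that 8.48% of measured genes had. The next was TIMM8A, at −0.09. In the 14 import genes with 1 listed transcript the largest shift was 0.00068. With TPM in place of counts, 30 of the 38 genes had a log2 ratio below 0 and 8 above, and the median was −0.15. Of the 14805 measured genes, 7047 were below 0 by TPM and 7747 above, with a median of 0.02. Of the 4 genes at least 1.3-fold lower by counts, TIMM10, ROMO1 and PMPCA were so by TPM and TOMM5 was at −0.36.

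**Figure D3:**
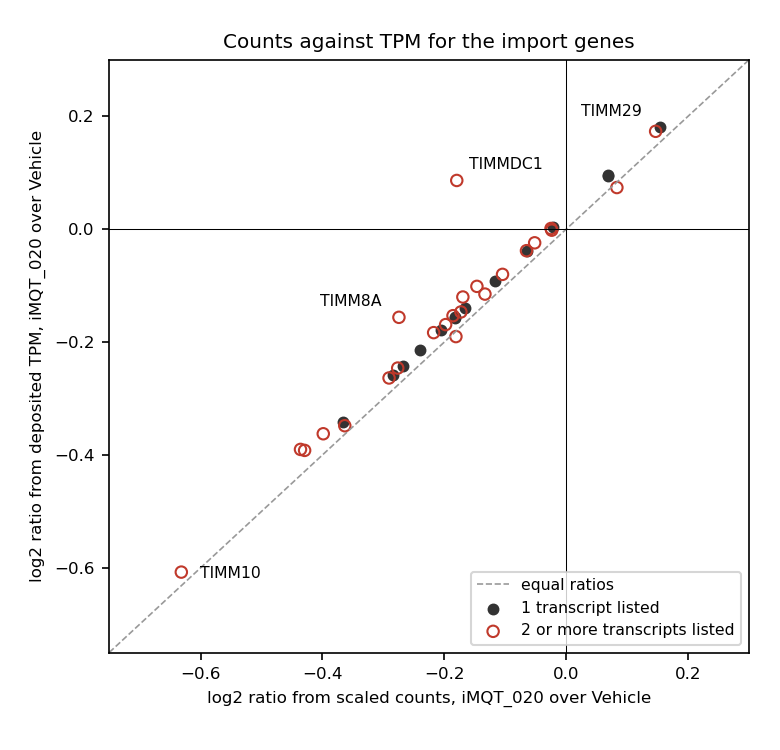
Log2 ratio from deposited TPM against log2 ratio from scaled counts, both iMQT_020 over vehicle, for the 38 measured import genes, with filled points for genes with 1 listed transcript and open points for the rest. TIMMDC1 stands off the line of equal ratios, at −0.18 by counts and 0.09 by TPM.

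The count ratio varied with transcript length and base composition over all measured genes. In 10 bins of canonical transcript length the median ratio was −0.18 in the shortest and 0.20 in the longest, and in 10 bins of GC content it was 0.15 in the lowest and −0.29 in the highest. Import gene transcripts had a median length of 1730 bases, against 3257 for all measured genes with a length, and a median GC content of 47.9%, against 48.5%. Across the 38 genes Spearman's rho of the ratio was 0.19 with length and −0.41 with GC content, as a description of points that share the same libraries. Of the centred values, those of TIMM10 (−0.47) and TIMM22 (−0.39) were the 2 lowest and past the 1.3-fold rule, and that of TIMM29 (0.45) was the highest. The part of length and composition was not examined beyond this centring.

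**Figure D4:**
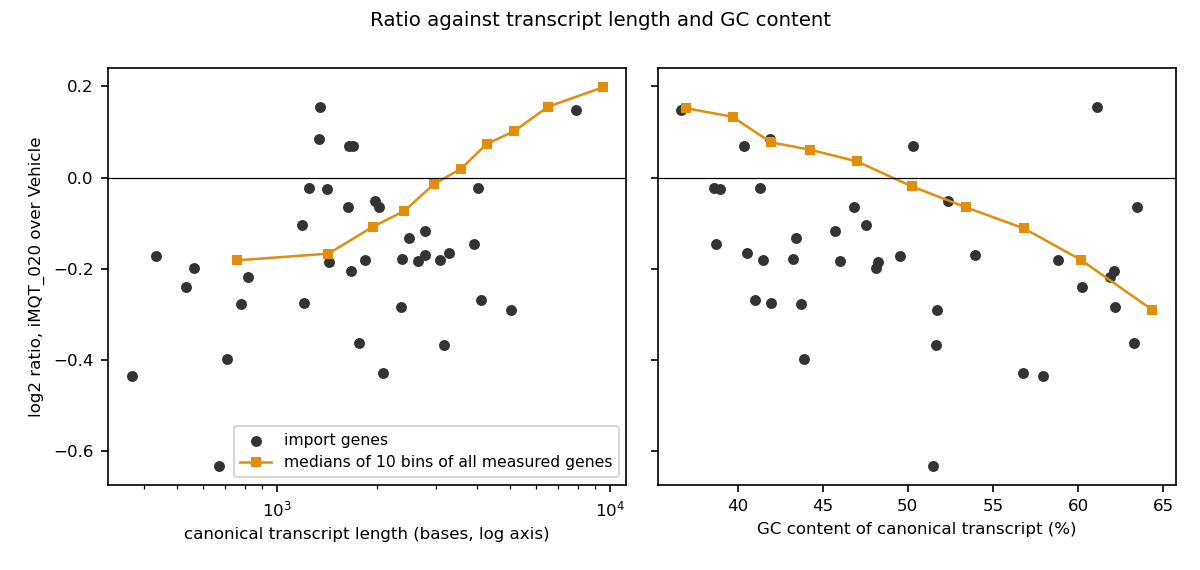
Log2 ratio, iMQT_020 over vehicle, of the 38 measured import genes against the length (log axis) and the GC content of the canonical transcript, with squares for the medians of 10 bins of all measured genes. Bin medians run upward with length and downward with GC content, and most import genes have transcripts shorter than the median of 3257 bases.

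Other genes of the pathway, taken from a list of 38 chaperones, peptidases, insertases and cristae organisers, were spread evenly. Of the 37 measured, 19 were below 0 and 18 above, with a median of −0.01, 4 at least 1.3-fold lower (10.8%, against 17.5% of measured genes) and 2 at least 1.3-fold higher (against 15.1%). The highest of those measured were the cytosolic chaperones that carry precursors to TOMM70: HSPA8 had 208806 counts (iMQT_020) and 175802 counts (vehicle) and a ratio of 0.44, and HSP90AA1 had 228759 counts (iMQT_020) and 200481 counts (vehicle) and a ratio of 0.39. The lowest were CHCHD6 at −0.72 and MICOS13 at −0.49. Both belong to the cristae-organising MICOS complex, whose other genes were spread, with APOO at −0.28, MICOS10 at −0.27, IMMT at −0.05, CHCHD3 at 0.08 and APOOL at 0.14. HSPA9, the motor's ATPase, was at −0.05, and HSPD1, the matrix chaperonin, at −0.01.

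Cargo genes were read by the same rule. Of 78 mitochondrial ribosomal protein genes, imported to the matrix, 67 were below 0 with a median of −0.15, 5 at least 1.3-fold lower (6.41%) and 0 higher, against 17.5% and 15.1% of measured genes. Of 41 measured SLC25A carrier genes, inserted by the TIM22 route, 23 were below 0 with a median of −0.02, 8 at least 1.3-fold lower (19.5%, near the 17.5% of measured genes) and 3 higher. The median ratio of the import genes was nearer to that of the ribosomal proteins than to that of the carriers, without a test. Median transcript length was 1730 bases for the import genes, 1242 for the ribosomal proteins and 2891 for the carriers. The ribosomal protein and carrier genes were given no centred values, and the part of length was not tested.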

How the data were processed

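The data were 2 RNA libraries, 1 from iMQT_020 cells and 1 from vehicle cells. TRIzol extraction, GRCh38 as the genome and mapping by HISAT2 with Bowtie2 are stated per the labels' protocols. StringTie and edgeR appear without a version in the submitters' processing notes. How reads were counted, and whether by strand, is not given in the sources used here. Overlapping genes may therefore share reads. The authors deposited a table of estimated counts (whole numbers), FPKM and TPM per gene, the last 2 scaled by them for transcript length and depth. A shorter deposited table repeats the FPKM.

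Counts were scaled by TMM over the 14805 measured genes in edgeR 4.0.16 under R 4.3.3 (factors 0.995 for iMQT_020 and 1.01 for vehicle). The log2 ratio used a prior count of 0.5 per library. Exact Clopper-Pearson intervals treat estimates as whole reads and cover counting error only, since reads are not independent molecules. Genes were counted by rules of 1.3-fold and 2-fold, with no p-value. The calculation was tested on simulated counts with counting error alone, which checks the arithmetic and not variation between cultures. Roles, partner lists and members were chosen with earlier results of these data known. Named with full values were genes 1.3-fold apart, a fixed set of core genes and the highest and lowest of each role. Transcript length and GC content came from canonical transcripts of GENCODE 44, and gene positions and promoters from RefSeq (GRCh38.p14), which matched 44698 of 46427 rows. Alternatives were other scalings (DESeq2 1.42.0 for median of ratios), count minimums, prior count, units, centring, summed rows, non-overlapping genes and a 1.5-fold rule. Python 3.11.15 with numpy 2.4.6, pandas 2.3.3, scipy 1.17.1 and matplotlib 3.10.9 was used.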

Additional observations from a re-analysis of the deposited data

How the results depend on the processing

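No paired analysis was possible because each treatment had 1 library and no result comes from a test, and leaving out a replicate was not possible for the same reason. Across the 15 alternatives to the main ratio, the median of the import genes stayed below 0, with the values farthest apart at −0.227 (upper quartile scaling) and −0.0866 (centred on GC content and length). The number at least 1.3-fold lower was 4. It was 6 with upper quartile scaling, a minimum of 10 counts or no minimum, as TIMM22 and TOMM40 lie at the edge of the rule. The shares of all genes with a value were then 19.9%, 20.6% and 24.4%. The number was 5 with total counts or deposited FPKM (18.2% and 13.9% of all genes). It was 3 with deposited TPM (14.4% with a pseudocount of 1 and 17.0% with 0.1) and 2 with the centring (14.2%). With a 1.5-fold rule it was 1, TIMM10, and 8.56% of measured genes lay lower than TIMM10. The share of all genes past the 1.5-fold rule was not calculated. The number at least 1.3-fold higher was 0, and 1 with the centring (TIMM29, against 11.6% of all genes). With no minimum, TOMM20L at 5 counts (iMQT_020) and 0 counts (vehicle) entered as the 1 gene at least 1.3-fold higher and the 1 gene at least 2-fold apart. Over all genes with no minimum, 26.2% were at least 1.3-fold higher, and the share at least 2-fold apart was not calculated. Of 38 genes, 22 were below 0 and 4 (MTX2, SAMM50, TIMM17A, TIMM29) above 0 under every setting run. The other 12 changed sign under at least 1 setting, 9 of them (GFER, MTX1, MTX3, PAM16, TIMM9, TIMM13, TIMM17B, TIMM44 and TOMM34) only with the centring. Counting error limits the genes whose interval holds 0, 6 of 38, and says nothing of variation between cultures.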

Other observations

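Pseudogene rows of the import genes are in the table but outside the rule. Of 29 such rows, 19 had 0 counts in both libraries. TOMM20P4 had the most, 53 counts in the iMQT_020 library and 80 in the vehicle library, followed by CHCHD4P3 with 23 (iMQT_020) and 45 (vehicle). The read-through row CORO7-PAM16 had 51 counts (iMQT_020) and 126 counts (vehicle), and TIMM23B-AGAP6 had 917 (iMQT_020) and 1242 (vehicle), more than the 451 (iMQT_020) and 567 (vehicle) of TIMM23B itself. Against 1042 counts (iMQT_020) and 1411 counts (vehicle) for PAM16 the first row is small, and no reading of the second row apart from TIMM23B was attempted.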
